A study of Homo sapiens with 6 samples.

Results

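The 9 genes described here encode replacement histone variants and lie outside the large histone gene clusters. They are *H3-3A*, *H3-3B* and *CENPA* for H3, *H2AZ1*, *H2AZ2*, *H2AX*, *MACROH2A1* and *MACROH2A2* for H2A, and *H1-10* for the linker histone. They were taken by name as the rows of the expression table whose Ensembl identifiers map to these symbols, and all 9 were found among the 58735 genes of the table. RNA-seq was performed on HGC27, a human gastric cancer cell line, in 3 libraries of a control group and 3 libraries of a group treated with ARV-825 for 48 h, whose titles give the dose as ARV125nM. ARV-825 combines OTX015, which binds BET proteins, with a moiety that recruits the ubiquitin ligase subunit cereblon, so that BET proteins are marked for degradation. The labels name an Illumina TruSeq RNA kit, which enriches polyadenylated RNA and keeps no strand information. They call the control cells untreated (0 nM) whereas the Methods name DMSO, and the labels give no genetic change in either group. Whether replicates stem from separate cultures was not given in the sources used here, so every p-value reflects the spread among these libraries alone, which may be technical.

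Histones of the clusters are made mainly in S phase, and most of their mRNAs end in a stem-loop instead of a poly(A) tail. Replacement variants are made through the cell cycle or, for CENP-A, mainly in G2, mostly from polyadenylated mRNAs, and they enter chromatin outside replication through chaperones and exchange complexes of their own. H3.3 marks active genes and, with other chaperones, telomeres and repeats, H2A.Z flanks transcription start sites, H2AX is phosphorylated around DNA breaks, macroH2A lies in silent chromatin, and CENP-A defines the centromere.

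Promoter sequences are shown for the 6 genes with a TATA or CHR word (cell cycle homology region), so that genes that fell can be read beside genes that rose. They are RefSeq sequences of build GRCh38.p14, and all 9 genes had at least 1 window, 13 windows in all. *H3-3A* and *MACROH2A1* had more than 1 window, and some windows of *H3-3A* overlap. A count of windows is therefore not a count of genes. For *CENPA* and *H3-3B* the RefSeq start lies far inside the longer gene span that GENCODE gives. Starts of some other members also lie inside it by shorter distances, among them *H2AZ1* and windows of *H3-3A* and *MACROH2A1*. Each line gives the 250 bases before the annotated start, 5′ to 3′ on the strand of the gene, and capitals mark the words searched: the TATA box as TATAAA, the CCAAT box as CCAAT or, on the other strand, ATTGG, the GC box as GGGCGG or its reverse CCGCCC, and the CHR as TTTGAA, with the reverse TTCAAA, or else TTCGAA. The E2F words were TTTGGCGC, TTTGCCGC, TTTCGCGC and TTTCCCGC. The E-box CACGTG and the cyclic AMP response element TGACGTCA were also searched.
CENPA chr2:26785806-26786055 (plus strand): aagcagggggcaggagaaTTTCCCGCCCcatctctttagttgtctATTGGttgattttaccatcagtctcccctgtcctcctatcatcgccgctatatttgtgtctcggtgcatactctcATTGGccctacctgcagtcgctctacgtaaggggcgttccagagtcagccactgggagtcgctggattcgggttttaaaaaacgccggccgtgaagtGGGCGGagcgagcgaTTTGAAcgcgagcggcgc
H2AZ1 chr4:99950276-99950525 (minus strand): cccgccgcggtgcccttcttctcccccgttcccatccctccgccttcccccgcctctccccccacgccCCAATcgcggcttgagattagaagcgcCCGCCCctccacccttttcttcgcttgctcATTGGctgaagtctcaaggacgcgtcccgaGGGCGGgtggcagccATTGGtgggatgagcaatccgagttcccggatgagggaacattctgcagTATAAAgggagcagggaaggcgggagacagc
H2AX chr11:119095466-119095715 (minus strand): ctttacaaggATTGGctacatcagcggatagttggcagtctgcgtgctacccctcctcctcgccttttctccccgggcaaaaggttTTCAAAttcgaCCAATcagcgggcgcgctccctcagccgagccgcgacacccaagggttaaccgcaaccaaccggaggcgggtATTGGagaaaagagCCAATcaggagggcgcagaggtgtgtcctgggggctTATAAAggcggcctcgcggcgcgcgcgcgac
H2AZ2 chr7:44848088-44848337 (minus strand): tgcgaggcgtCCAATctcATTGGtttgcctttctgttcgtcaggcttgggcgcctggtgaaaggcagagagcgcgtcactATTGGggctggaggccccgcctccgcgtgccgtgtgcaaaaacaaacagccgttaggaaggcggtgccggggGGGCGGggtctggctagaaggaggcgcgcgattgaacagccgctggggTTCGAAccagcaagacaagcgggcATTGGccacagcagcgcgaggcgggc
H3-3B chr17:75779780-75780029 (minus strand): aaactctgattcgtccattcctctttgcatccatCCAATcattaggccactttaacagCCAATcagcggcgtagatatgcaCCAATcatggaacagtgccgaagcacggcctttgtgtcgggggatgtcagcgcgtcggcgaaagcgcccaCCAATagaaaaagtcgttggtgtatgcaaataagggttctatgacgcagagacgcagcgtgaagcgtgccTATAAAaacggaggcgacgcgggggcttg
H1-10 chr3:129316287-129316536 (minus strand): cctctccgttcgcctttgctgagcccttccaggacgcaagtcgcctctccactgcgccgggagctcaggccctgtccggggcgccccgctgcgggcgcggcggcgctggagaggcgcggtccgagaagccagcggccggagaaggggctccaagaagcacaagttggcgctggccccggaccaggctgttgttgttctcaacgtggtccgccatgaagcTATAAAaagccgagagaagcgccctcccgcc

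The TATA word stood 31 bases before the start in *H2AZ1*, *H2AX* and *H1-10* and 29 bases before it in *H3-3B*, and in none of the windows of the other members. Of 35116 promoter windows of 300 bases, 11.5% held it on either strand. CCAAT words were found in 9 of the 13 windows, against 34.6% of all windows, and *H2AX*, *H2AZ2* and *H3-3B* had 4 each. *H2AZ1* had 3 and *CENPA* 2, and *H1-10* had none in this window. A CHR word was found in *CENPA* (18 bases before the start), *H2AZ2* (50 bases before, TTCGAA), *H2AX* (164 bases before, other strand) and *H2AZ1*, where it lies 5 bases into the transcript, whose first 30 bases read as follows.
H2AZ1 first bases of the transcript: gcagTTTGAAtcgcggtgcgacgaaggagt
CHR words occurred in 16.4% of all windows. *CENPA* was the one member with an E2F word, TTTCCCGC at 232 bases before the start, where its last bases overlap a GC box, and 3.31% of all windows held an E2F word. GC boxes occurred in 9 of the 13 windows and in 45.0% of all windows. CACGTG and TGACGTCA were found in 0 member windows, against 7.26% and 1.85% of all windows. These matches describe letters only. The genes with a TATA word include some that were higher and some that were lower after ARV-825 treatment.

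Across the libraries, between 14821971 and 19145661 fragments fell in genes. Values are FPKM, fragments per kilobase of exon relative to a depth scale set by the authors, and changes are log2 fold changes of FPKM + 1 between ARV-825 and control, tested with limma over the 13442 genes whose mean FPKM reached 1 (Benjamini-Hochberg adjusted p). Markers of epithelium and gastric mucosa were below 1 FPKM in both groups for all 10 genes listed, *EPCAM* being the highest with 0.602 FPKM in ARV-825, whereas the mesenchymal marker *VIM* stood at 269 ± 5.94 and 247 ± 1.90 FPKM (SD, n = 3 each). Of the other mesenchymal markers, *FN1* had means of 4.76 and 1.99 FPKM, and *CDH2* had means of 0.0574 in control and 0 in ARV-825. The leukocyte marker *PTPRC* and the endothelial marker *PECAM1* were below 0.1 FPKM. Mitochondrial genes took 5.62% to 6.24% of fragments in control and 9.84% to 12.0% in ARV-825 libraries, and replicate 1 of ARV-825 differed from the other replicates of its group (chi-square per degree of freedom 6.68 and 6.02, against 1.62 between those replicates). The part of either in the results was not tested, and values without replicate 1 are given for each tested member.

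Of the 9 genes, 8 passed the filter. *H3-3A*, *H3-3B* and *H1-10* were higher in the ARV-825 treatment group, *CENPA*, *H2AZ1* and *H2AX* were lower, and *H2AZ2* and *MACROH2A1* did not pass the test. That makes 3 higher, beside 37.0% of all tested genes, and 3 lower, beside 40.2%, so the number of calls is near the background. Past a log2 fold change of 1 in size as well, 1 member was higher (*H3-3B*, background 8.81%) and 2 were lower (*CENPA* and *H2AZ1*, background 12.1%). The libraries of the groups did not overlap for 7 of the 8 genes, against 80.1% of all genes tested. For the 8 genes the log2 fold change had a median of 0.060, and for all genes tested one of −0.015. In bulk RNA, fewer cells expressing a gene and less of its RNA per cell cannot be told apart.

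**Figure D1:**
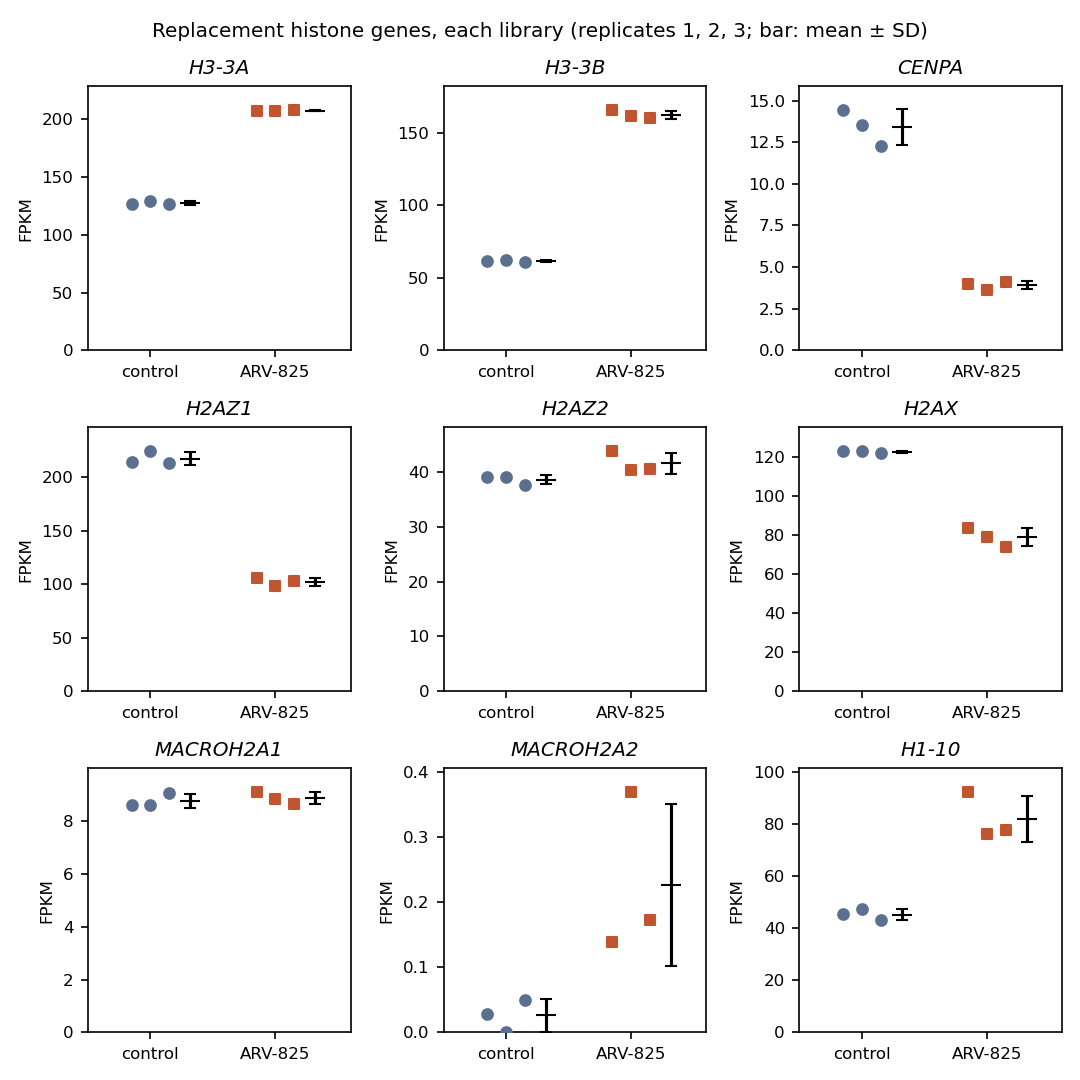
FPKM of each of the 9 genes in the 3 control (circles) and 3 ARV-825 libraries (squares), with the group mean ± SD beside them and every axis starting at 0. *H3-3A* and *H3-3B* stand higher in every ARV-825 library, *CENPA* falls from 13.4 to 3.91 FPKM, and *MACROH2A1* overlaps between the groups.

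*H3-3A* (ENSG00000163041, chr1:226061851-226072001 on the plus strand, GRCh38) and *H3-3B* (ENSG00000132475, chr17:75776434-75785893, minus strand) encode the same H3.3 protein from different genes. In control replicates 1, 2 and 3, *H3-3A* had 126, 129 and 127 FPKM, and in ARV-825 replicates 207, 207 and 208 FPKM. All ARV-825 libraries lay far above all control libraries, and they hardly differed among themselves (coefficient of variation 0.283%). *H3-3A* thus rose 1.63-fold, by 0.70 on the log2 scale (SE 0.0286, limma adjusted p = 1.31e-06). *H3-3B* had 61.7, 62.4 and 61.1 FPKM in control and 165, 161 and 160 FPKM in ARV-825. It was the member with the largest rise, 2.63-fold, by 1.38 on the log2 scale (SE 0.0302, adjusted p = 1.87e-07), and 95.6% of all genes tested had a lower log2 fold change. Together the pair went from 189 ± 2.01 to 369 ± 2.33 FPKM, and the share of *H3-3A* in that sum went from 67.3% to 56.1%.

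The ratio of *H3-3B* to *H3-3A* within a library does not depend on how the library was scaled. It was 0.488, 0.484 and 0.482 in control replicates 1, 2 and 3, and 0.801, 0.779 and 0.771 in those of ARV-825. Every ARV-825 library was higher, by 0.69 on the log2 scale, with an SD within groups of 0.0212 (n = 3 each). An exact two-sided permutation test gave p = 0.1, the smallest that 3 against 3 libraries can give. The order of the pair rests on the exon length used, since FPKM here divides by all annotated exons, 3146 bases for *H3-3A* and 6134 for *H3-3B*. By the longest protein-coding transcript the ratio was 0.651 in control and 1.05 in ARV-825, a length chosen after the data were examined, so the change is the same but *H3-3B* then stands slightly above *H3-3A* after treatment. Fragments were also assigned to processed copies of *H3-3A*: those of *H3P6* equalled 7.85% of the fragments of *H3-3A* in control and 9.33% in ARV-825. Whether they came from the copy or from *H3-3A* was not tested. With the fragments of *H3P6* and *H3P16* added, an alternative also chosen after the data were seen, the log2 fold change was 0.72, against 0.70 for *H3-3A* alone, both without a pseudocount. Without ARV-825 replicate 1 the log2 fold changes were 0.70 for *H3-3A* and 1.37 for *H3-3B*.

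*CENPA* (ENSG00000115163, chr2:26764289-26801067, plus strand), the centromeric H3 variant, had the largest fall. Its level was 14.4, 13.5 and 12.2 FPKM in control and 4.01, 3.62 and 4.10 FPKM in ARV-825, from 462 to 513 and from 108 to 119 fragments. The lowest control library was far above the highest ARV-825 library. The group means were 13.4 ± 1.10 and 3.91 ± 0.254 FPKM (SD, n = 3 each), and *CENPA* fell to 29.2% of control, a log2 change of −1.55 (SE 0.0696, adjusted p = 1.86e-06). The pseudocount of 1 shrinks this value, which was −1.77 with a pseudocount of 0.01 and −1.86 with limma-voom on recovered fragments. Only 3.99% of genes tested had a lower log2 fold change. Relative to the summed H3.3 genes, *CENPA* went from 0.0709 to 0.0106, a log2 difference of −2.74 (exact two-sided permutation p = 0.1, the smallest possible). Of its exon bases, 6.96% are shared with *SLC35F6*, a gene on the same strand. Without ARV-825 replicate 1 the log2 fold change was −1.57.

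The H2A.Z genes *H2AZ1* (ENSG00000164032, chr4:99948086-99950388, minus strand) and *H2AZ2* (ENSG00000105968, chr7:44826791-44848083, minus strand) encode proteins that differ at a few residues. *H2AZ1* was the most abundant member in control, with 214, 224 and 213 FPKM, and had 106, 98.2 and 103 FPKM in ARV-825. No library of one group came near the other, and *H2AZ1* fell to 47.1% of control (log2 fold change −1.08, SE 0.0412, adjusted p = 9.82e-07 from limma). *H2AZ2* had 39.1, 39.0 and 37.6 FPKM in control and 43.8, 40.3 and 40.5 FPKM in ARV-825. Its groups did not overlap, but the gap was small, and it did not pass the test (log2 fold change 0.10, SE 0.0427, 95% interval 0.0018 to 0.21, adjusted p = 0.0600). Its direction depends on the scaling: *H2AZ2* was called higher after quantile normalization (0.19, adjusted p = 0.000893) and lower on the TPM scale (−0.20, adjusted p = 0.0116).

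The ratio of *H2AZ1* to *H2AZ2* was 5.49, 5.75 and 5.67 in control replicates 1, 2 and 3, against 2.42, 2.43 and 2.53 in those of ARV-825. The log2 difference was −1.19 with an SD within groups of 0.0356 (exact two-sided permutation p = 0.1, the smallest possible), and every ARV-825 library was lower. The summed H2A.Z genes went from 256 ± 6.76 to 144 ± 5.65 FPKM, and *H2AZ1* made up 84.9% of the sum in control and 71.1% in ARV-825. These levels rest on exon lengths of 2303 bases for *H2AZ1* and 4749 for *H2AZ2*, against 979 and 3804 in the longest protein-coding transcript. Per kilobase of that transcript, mean fragments were 9416 and 887 in control and 3547 and 765 in ARV-825. The ratio and the share of *H2AZ1* then stand higher in both groups. Without ARV-825 replicate 1 the log2 fold changes were −1.11 for *H2AZ1* and 0.067 for *H2AZ2*.

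*H2AX* (ENSG00000188486, chr11:119093854-119095467, minus strand), a gene without introns whose mRNA exists in a stem-loop and a polyadenylated form, had 123, 123 and 122 FPKM in control. In ARV-825 it had 83.5, 79.1 and 74.0 FPKM, all of them under every control library. *H2AX* fell to 64.4% of control (log2 fold change −0.63, SE 0.0470, adjusted p = 1.90e-05; −0.67 without ARV-825 replicate 1). The ratio of *H2AX* to *H2AZ1* went from 0.563 to 0.771 and was higher in every ARV-825 library, a log2 difference of 0.45 (exact two-sided permutation p = 0.1). By the longest protein-coding transcript its level is lower in both groups. *H2AZ1* then has 979 bases against 2303, and *H2AX* 1614 either way.

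**Figure D2:**
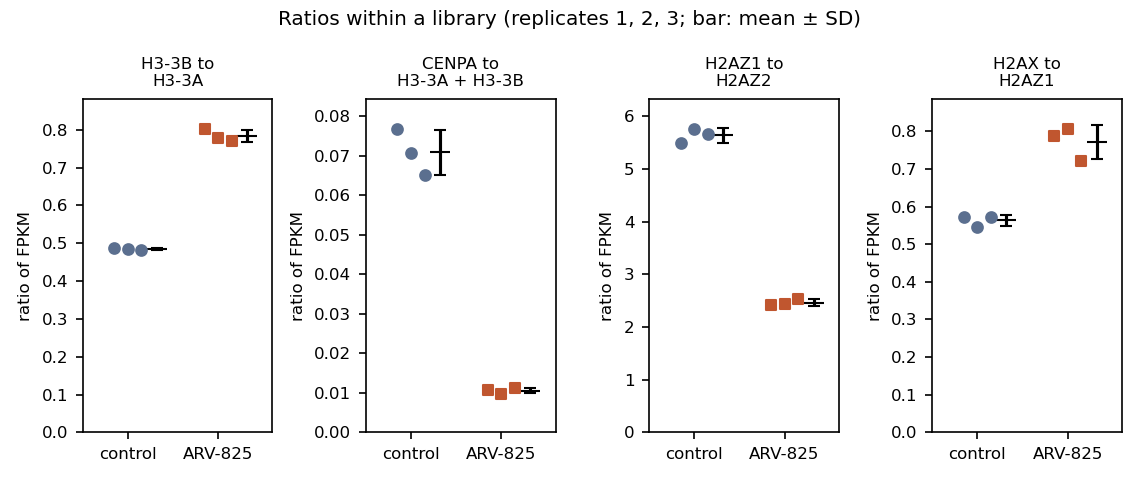
Ratios of FPKM between members within each library, control circles and ARV-825 squares, with mean ± SD beside them and axes from 0. H3-3B to H3-3A goes from 0.485 to 0.784, H2AZ1 to H2AZ2 from 5.64 to 2.46, and no panel has overlapping groups.

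*MACROH2A1* (ENSG00000113648, minus strand of chromosome 5) encodes the H2A variant with a macro domain. It had 8.61, 8.59 and 9.04 FPKM in control and 9.09, 8.82 and 8.64 FPKM in ARV-825, so the groups overlapped. The log2 fold change was 0.016 with a 95% interval of −0.081 to 0.11 (adjusted p = 0.739 from limma), and it was −0.28 (adjusted p = 0.00284) on the TPM scale. Without ARV-825 replicate 1 it was −0.0016. Gene values do not separate its splice forms, and 28.0% of its exon bases overlap *PITX1-AS1* on the other strand, and without strand information fragments there cannot be assigned to either gene. *MACROH2A2* (ENSG00000099284, plus strand of chromosome 10) had 1, 0 and 2 fragments in control and 4, 11 and 5 in ARV-825. Its mean of 0.126 FPKM kept it out of the test, and the ratio of *MACROH2A1* to *MACROH2A2* was not computed because of the 0. Among all genes with no filter on low values its log2 fold change was 0.25 (adjusted p = 0.0422), and with a minimum mean of 0.1 FPKM the adjusted p was 0.0517.

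*H1-10* (ENSG00000184897, chr3:129314771-129316277, minus strand), a linker histone gene without introns, had 45.5, 47.3 and 43.1 FPKM in control and 92.3, 76.1 and 77.6 FPKM in ARV-825. Every ARV-825 library was above every control library, with replicate 1 the highest. *H1-10* rose 1.81-fold (log2 fold change 0.84, SE 0.0788, adjusted p = 6.08e-05), and 0.75 on the log2 scale without ARV-825 replicate 1. Its antisense gene *H1-10-AS1*, which covers 22.9% of the exon bases, had 15, 13 and 17 fragments in control and 5, 3 and 4 in ARV-825, against at least 1226 for *H1-10*.

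**Figure D3:**
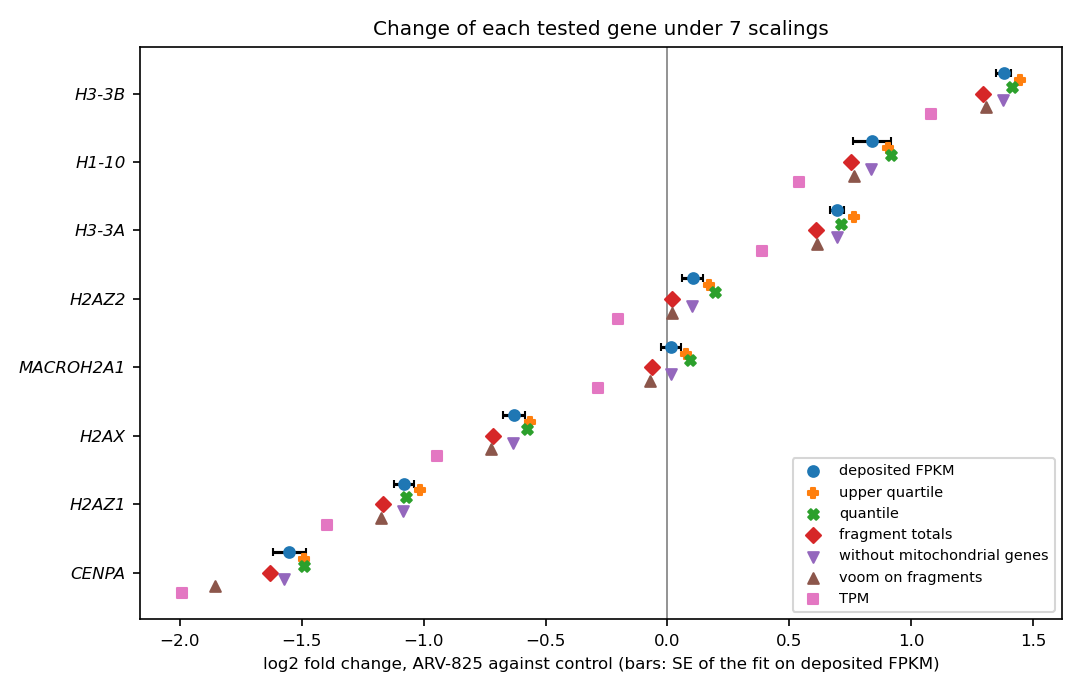
Log2 fold change of each of the 8 tested genes (horizontal axis, ARV-825 against control) on the deposited FPKM with the SE of the fit, and under 6 other scalings. The signs of *H3-3B*, *H1-10*, *H3-3A*, *H2AX*, *H2AZ1* and *CENPA* are the same in all 7, whereas *H2AZ2* and *MACROH2A1* cross 0.

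By level, control libraries ranked *H2AZ1* (217 FPKM), *H3-3A* (127), *H2AX* (122), *H3-3B* (61.7), *H1-10* (45.3), *H2AZ2* (38.6), *CENPA* (13.4), *MACROH2A1* (8.75) and *MACROH2A2* (0.0261) by mean FPKM. In ARV-825 the order was *H3-3A* (207 FPKM), *H3-3B* (162), *H2AZ1* (102), *H1-10* (82.0), *H2AX* (78.9), *H2AZ2* (41.5), *MACROH2A1* (8.85), *CENPA* (3.91) and *MACROH2A2* (0.227). Of neighbours in these orders, *H1-10* and *H2AX* in ARV-825 overlapped between libraries. Levels between genes hold per kilobase of all annotated exons, which for *MACROH2A1* span 17730 bases against 2789 in its longest protein-coding transcript. Per kilobase of that transcript, some ranks change. In control, *H3-3B* (2580 fragments) then stands above *H2AX* (2256), and *MACROH2A1* (1027) and *H2AZ2* (887) above *H1-10* (833). In ARV-825, *H3-3B* (5427) stands above *H3-3A* (5157) and *MACROH2A1* (830) above *H2AZ2* (765).

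The summed FPKM of the 9 genes was 635 ± 11.3 in control and 687 ± 20.6 in ARV-825 (SD, n = 3 each). The makeup of that sum differed more: *H2AZ1* went from 34.2% to 14.9% of it, *H3-3B* from 9.73% to 23.6%, *H3-3A* from 20.1% to 30.2%, and *H2AX* from 19.3% to 11.5%. *H2AZ2* made up 6.08% and 6.04%. Set against the 70 cluster histone genes of the table, the members' share of all histone FPKM was 82.6%, 82.3% and 81.9% in control and 21.6%, 21.3% and 21.1% in ARV-825. The groups are far apart (exact two-sided permutation p = 0.1, the smallest possible). The cluster sum went from 137 ± 3.21 to 2533 ± 49.9 FPKM, and 49 of the 50 cluster genes tested were higher and 0 lower, with a median log2 fold change of 2.99, so the members' sum moved little beside it.

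By class, *H3-3A* and *H3-3B* together made up 97.2% ± 0.0926 of the FPKM of H3.3 and cluster H3 genes in control and 65.5% ± 0.641 in ARV-825, although their own FPKM rose. The H2A variants made up 93.0% ± 0.365 and 32.9% ± 0.243, and *H1-10* 70.3% ± 0.591 and 14.4% ± 1.38 of its class. Cluster genes are near-identical copies with short exons, and their mRNAs mostly lack the poly(A) tail that this type of library kit selects, so these are shares of the libraries and not of histone mRNA in the cell. Counted in fragments instead of per kilobase, the members' share went from 95.3% to 48.9%. The share in fragments went from 99.2% to 88.6% in the H3 class, a much smaller difference than per kilobase, from 97.7% to 59.5% in the H2A class and from 84.6% to 28.1% for *H1-10*.

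**Figure D4:**
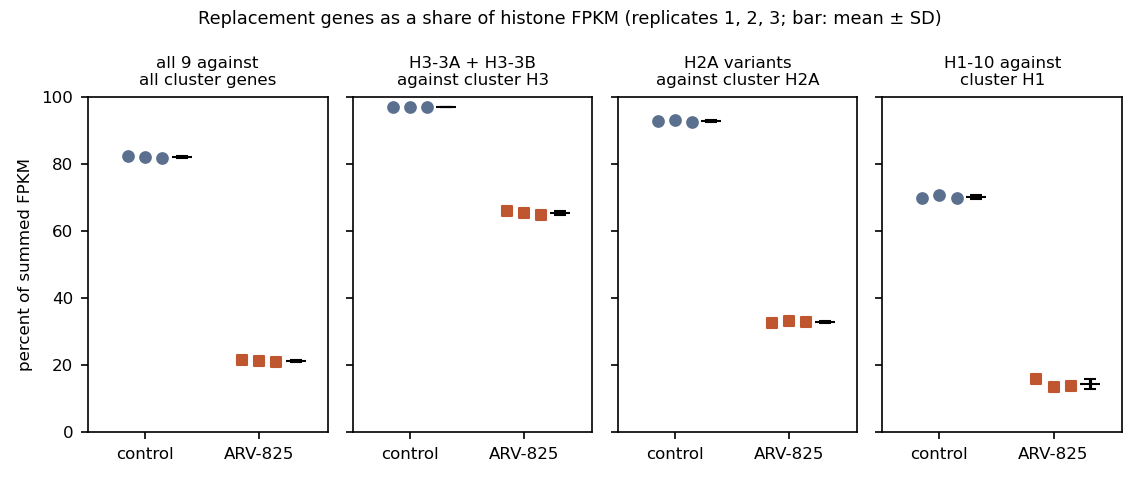
Percent of summed histone FPKM that came from the replacement genes in each library, for all classes and by class, with control as circles, ARV-825 as squares and mean ± SD beside them. The mean share is 82.3% and 21.3% over all classes and 97.2% and 65.5% in the H3 class.

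Genes whose products deposit, exchange, remove or read the variants were counted from lists written with earlier results of these data known. For every list below, the background is 37.0% of all tested genes higher and 40.2% lower. Of the 8 H3.3 deposition genes, 4 were higher and 3 lower, 1 missed the threshold, and the median log2 fold change was 0.20. *CABIN1*, a subunit of the HIRA complex, rose from 13.6 ± 0.304 to 31.5 ± 1.80 FPKM (log2 fold change 1.15, adjusted p = 1.44e-06 from limma), and its partner *UBN1* rose by 0.59 on the log2 scale. *DEK*, a histone chaperone, fell from 56.4 ± 0.288 to 23.4 ± 1.65 FPKM (−1.24, adjusted p = 1.51e-06), and *DAXX*, which deposits H3.3 at telomeres and repeats, fell by 0.53 on the log2 scale. The others, named after their values were seen, were *UBN2* (0.47) and *ATRX* (0.33), both higher, *HIRA* (−0.41), lower, and *ASF1A* (0.077, adjusted p = 0.382).

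All 10 genes of CENP-A loading passed the test, 9 of them lower, with a median of −0.69. *HJURP*, the chaperone of CENP-A, fell from 17.0, 15.8 and 17.1 FPKM in control to 4.54, 4.23 and 4.36 FPKM in ARV-825, a log2 fold change of −1.71 (adjusted p = 3.38e-07). The Mis18 complex genes *OIP5* (−1.18) and *MIS18A* (−0.96) fell as well, both with groups that do not overlap, as for 80.1% of all genes tested. The 1 higher gene was *CENPC* (0.16, adjusted p = 0.0286, named after its values were seen), which binds CENP-A nucleosomes. Its call was lost without control replicate 1, control replicate 3, ARV-825 replicate 2 or ARV-825 replicate 3.

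Both listed genes for H2A.Z removal fell. *ANP32E*, a chaperone that takes H2A.Z out of nucleosomes, fell from 63.3, 62.0 and 59.2 FPKM to 15.1, 18.0 and 17.4 FPKM (log2 fold change −1.81, adjusted p = 8.67e-07), and *INO80*, the ATPase of a remodeling complex, fell by 0.83. Of the 19 genes of H2A.Z exchange, which make up the SRCAP and TIP60/p400 complexes, 11 were lower, 3 higher and 5 did not pass, with a median of −0.33. The largest changes were falls of TIP60 or shared subunits, *YEATS4* (−1.29), *MRGBP* (−0.96), *EPC2* (−0.94) and the acetyltransferase *KAT5* (−0.83). The pseudocount of 1 shrinks these values most at low FPKM. In FPKM relative to control, *YEATS4* fell to 36.5%, *EPC2* to 40.1%, *KAT5* to 46.6% and *MRGBP* to 49.2%. *SRCAP* and *EP400*, the SNF2-type remodelers of the complexes, were named after their values were seen and did not pass, with log2 fold changes of 0.0081 (adjusted p = 0.924) and 0.10 (adjusted p = 0.0970).

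Of 11 genes of H2AX signalling, 6 were lower, 2 higher and 3 did not pass, with a median of −0.17. *MDC1*, the reader of phosphorylated H2AX, had a log2 fold change of −0.62, the kinase gene *PRKDC* −0.61, *BAZ1B*, whose product phosphorylates H2AX on a tyrosine, −0.59, and the ubiquitin ligase gene *RNF168* −0.39. Without ARV-825 replicate 1, 4 genes of this list were higher in place of 2. Of the 5 genes of macroH2A exon choice and binding, *QKI* (0.68), *DDX5* (0.42) and *DDX17* (0.31), which act on splicing, were higher. *MBNL1* (−0.32), also a splicing factor, and *PARP1* (−0.16), whose product binds macroH2A, were lower.

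The replication-coupled chaperones were listed for contrast, and 6 of 9 were lower, 2 higher and 1 did not pass, with a median of −1.07. *CHAF1A* and *CHAF1B*, subunits of CAF-1, which deposits H3 and H4 behind the fork, fell by 1.89 and 1.37 on the log2 scale, *ASF1B* by 1.33 and *SSRP1*, a subunit of FACT, by 1.30. Both higher genes, *SUPT6H* (1.16) and *NAP1L1* (0.26), were named after their values were seen, and *SUPT6H* encodes a chaperone of transcription elongation. No list was tested as a set, and 77.2% of all genes tested passed in either direction.

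**Figure D5:**
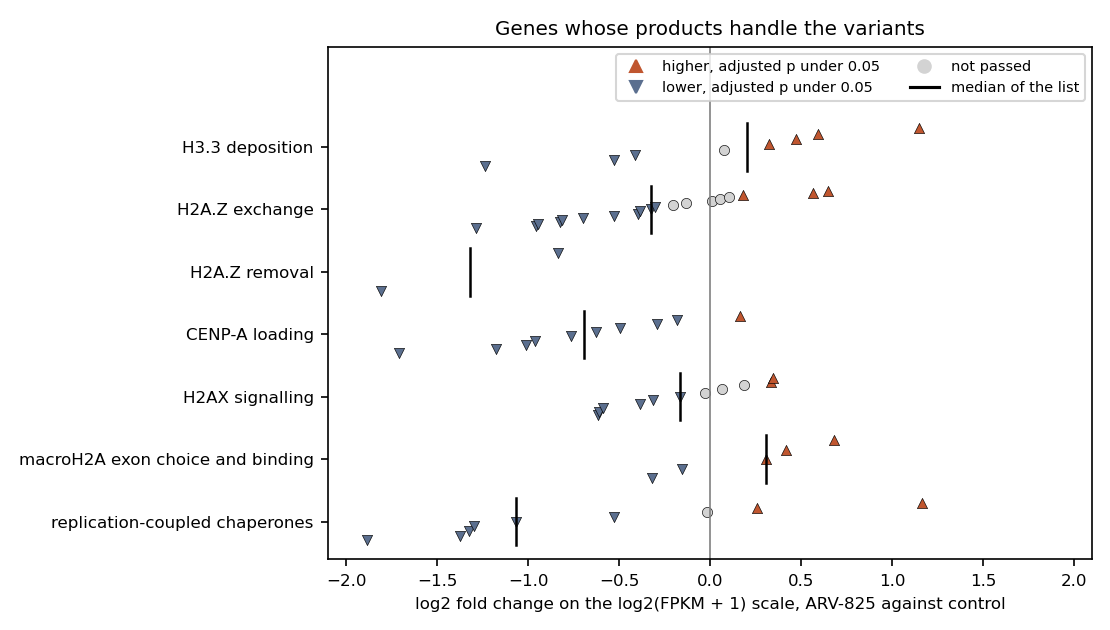
Log2 fold change on the log2(FPKM + 1) scale of each gene in the 7 lists (horizontal axis), with triangles up for higher, triangles down for lower, grey circles for not passed, and a bar at the median of the list. The CENP-A loading and replication-coupled lists lie mostly below 0 (medians −0.69 and −1.07), and the H3.3 deposition list lies on both sides.

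Among 10589 other protein-coding genes, the 3 with the pattern most like *CENPA* over the 6 libraries were *SYT7*, *ZNF689* and *KAZALD1*, with a root mean square difference of centred log2 values of 0.0367, 0.0479 and 0.0522. Those most like *H3-3B* were *ADIPOR2*, *VPS39* and *PDIA4*, with differences of 0.0327, 0.0329 and 0.0344. *PDIA4*, for example, went from 164 ± 4.54 to 415 ± 17.1 FPKM. With 2 groups of 3 libraries this likeness mostly reflects a log2 fold change of FPKM + 1 of the same size. The pseudocount shrinks that value at low FPKM. *SYT7* went from 3.10 ± 0.239 to 0.456 ± 0.0661 FPKM, a larger relative fall than that of *CENPA*, from 13.4 to 3.91 FPKM.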

How the data were processed

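The authors deposited FPKM values for 58735 genes in 6 HGC27 libraries, with HISAT2 2.0.5 and the build mm10, which is of mouse, named in the submitters' processing notes, although all identifiers are human and found in GENCODE 29. Treated cells had received 125 nM ARV-825. The counting tool and the basis of the depth scale were not given in the sources used here. FPKM times the GENCODE 29 exon length gave whole fragments within 0.05 for 100% of values above 0.

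From these, log2(FPKM + 1) of the 13442 genes whose mean FPKM reached 1 was compared between the groups with limma 3.58.1 in R 4.3.3 (lmFit, eBayes with trend, no covariate). Benjamini-Hochberg adjustment ran over these genes. The other 45293 genes were left out. Calls used an adjusted p under 0.05, and where stated an absolute log2 fold change above 1, the thresholds of the study. Intervals are 95% intervals of the fit. Ratios and shares were computed within each library and compared by exact two-sided permutation tests. Alternatives covered the pseudocount, filter, scaling, variance model, gene class, a replicate block, voom on fragments and each library left out.

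The members and lists were chosen with earlier results of these data known. Named are all 9 members, up to 4 genes of each list, taken by size of change among those called, all genes of lists of 5 or fewer, and the 3 protein-coding genes most like *CENPA* and *H3-3B*. Of the genes this rule takes, 1 is not reported here.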

Additional observations from a re-analysis of the deposited data

How the results depend on the processing

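The calls and directions of *H1-10*, *H2AX*, *H2AZ1*, *H3-3A*, *H3-3B* and *CENPA* were the same in all 13 other settings tried and with each library left out. Their log2 fold changes ranged over those settings from 0.54 to 0.92, −0.94 to −0.56, −1.40 to −1.01, 0.39 to 0.76, 1.08 to 1.45 and −1.99 to −1.49, in that order. On the TPM scale, which moves the median of all genes tested to −0.31 and on which 26.4% of calls at both thresholds are higher against 42.1%, *H2AZ2* turned to −0.20 and *MACROH2A1* to −0.28. Then 5 members were lower, and the number of higher genes in the lists was 0 for CENP-A loading, 0 for H2AX signalling, 1 for macroH2A and 1 for replication-coupled chaperones. *MACROH2A1* also turned to −0.062 scaled to fragment totals and −0.071 with voom, and ranged from −0.0016 to 0.037 with each library left out. *H2AZ2* was called higher after upper quartile scaling (0.17), quantile normalization (0.19) and scaling without mitochondrial genes (0.10). Quantile normalization left 0 macroH2A genes lower. The higher call in CENP-A loading was also lost (0 higher) with no filter, fragment totals and voom, and the count was 0 to 1 with each library left out, and 2 to 4 for H2AX signalling. Over all genes, 1184 were higher and 1630 lower at both thresholds. The higher count was 1779 with a pseudocount of 0.01. It was 593 among protein-coding genes only, a smaller set of 10590 tested genes against 13442. The lower count was 2978 on the TPM scale and 2543 with voom. At the adjusted p alone, 3176 genes were higher on the TPM scale against 4977. The causes were not tested.

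The difference in the members' share of histone FPKM, −61.0 percentage points, was −46.4 in fragments, −54.6 with a pseudocount of 1 and −58.6 without the 3 highest cluster genes, a setting chosen after seeing the data. In fragments it was −10.7 against −31.7 in the H3 class and −38.2 against −60.2 in the H2A class. With a pseudocount of 1 the log2 difference of *CENPA* to H3.3 was −2.51.

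Deviations of libraries with the same replicate number were only weakly correlated (0.0042, 0.041 and 0.038), against −0.040 to 0.0016 for unlike numbers. With 3 libraries in each group, these values cannot settle whether the numbers pair the libraries. With the replicate number as a block, 3 members were higher and 3 lower, *H3-3B* to *H3-3A* differed by 0.69, and CENP-A loading had 0 higher. Depth limits *MACROH2A2*, with at most 11 fragments in a library.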

Other observations

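Another 5 variant genes, listed for comparison, had few or no fragments. *H2AJ* and *H3-5* had at most 3 fragments in a library, *H2AB1* at most 2, *H1-7* at most 1 and the oocyte linker histone gene *H1-8* had 0 in all 6 libraries, so no comparison between the groups was possible at this depth. *H2AJ* encodes an H2A variant described in senescent and epithelial cells.

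Processed copies of the members carried measurable values, chosen for display after they were seen. *H3P6*, on chromosome 2, had 75.7, 78.9 and 75.1 FPKM in control and 135, 153 and 155 FPKM in ARV-825 (log2 fold change 0.94, SE 0.0581, adjusted p = 7.71e-06 from limma). All ARV-825 libraries were above all control libraries, as for *H3-3A*. *H3P16*, on chromosome 4, had 9.99 ± 0.0890 and 18.8 ± 0.918 FPKM (SD, n = 3 each). *H2AZ2P1* had 23 to 46 fragments per library and did not pass the test (log2 fold change 0.43, adjusted p = 0.0526). How the counting split fragments between such copies and their source genes was not given in the sources used here.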
